A study of Mus musculus with 24 samples.

Results

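Control hearts after transverse aortic constriction (TAC), an operation that narrows the aorta and makes the heart pump against raised pressure, were compared with control hearts after Sham surgery. The 12 hearts were taken by their labels, genotype Control with treatment TAC (6 hearts) or Sham (6 hearts), out of 24 hearts in the series. All 24239 genes of the count table were described. Both groups were male mice of a *Sirt5* line on a C57BL6J background that lacked the recombinase (*Myh6-cre*) used to delete *Sirt5* in cardiomyocytes. Sham mice had the same operation without the constriction, and RNA of the whole heart was sequenced 12 weeks after surgery. The age of the mice is not given in the sources used here. Genes named beyond the naming rule are list members chosen after their values were seen. The other 12 hearts, which lack *Sirt5* in cardiomyocytes (cSirt5-/-), entered the model to estimate the spread and are otherwise compared only in their response to TAC.

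Under lasting pressure the heart muscle cell grows rather than divides, and it turns back on part of the fetal gene set, with the slow β-myosin heavy chain in place of the fast α form, skeletal α-actin beside cardiac α-actin, and natriuretic peptides. Fibroblasts lay down collagen and the proteins that organise it. An adult heart draws most of its energy from fatty acid oxidation in mitochondria, a supply known to decline in failing hearts. In whole-heart RNA, fewer cells of a type and less RNA per cell cannot be told apart.

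The recovered depth was 23.0 to 35.8 M reads per control TAC library, against 24.9 to 32.9 M per control Sham library, and the groups overlapped. Mitochondrially encoded genes took 14.99 to 20.3% of reads in TAC hearts and 21.4 to 24.7% in Sham hearts, without overlap (exact two-sided permutation test, p = 0.00216, the smallest that 6 against 6 can give, adjusted over 3 measures p = 0.00649). Ribosomal RNA and 7SK took 23.4% of the library of TAC heart 2. In the other control libraries they took 0.857 to 4.12% after TAC, against 1.035 to 2.985% after Sham. By the share of reads counted for genes that lie antisense to abundant genes, the libraries fell into 2 sets. Set 1 held TAC hearts 5 and 6 with Sham hearts 1 and 2, and set 2 held the remaining 8 control hearts, so that each comparison could be repeated inside a set. The animal numbers in the labels were grouped here into series of nearby numbers, and no label names a run or batch of animals. The TAC hearts and the Sham hearts of set 1 fell into separate number series. Surgery and number series therefore cannot be told apart in set 1. All 8 hearts of set 2 fell into another number series (series A). Within set 2 every Sham heart had a lower animal number than every TAC heart. Surgery and the order of animal numbers therefore cannot be told apart in set 2 either. Sham heart 1 stood apart by high matrix transcripts, and TAC heart 5 by high matrix and low metabolic transcripts. Counts of pathway list members, or the members lost, are given without a heart where leaving it out moved them by more than 1.5 times. Cardiomyocyte markers were abundant in all 12 hearts (*Myh6* 362757 to 997770 normalized counts), as the tissue label requires. *Sirt5*, which is intact in these mice, was at 565 to 795.5 normalized counts in TAC hearts, against 387.5 to 806.5 in Sham hearts.

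A gene was called changed (a DEG) at a Benjamini–Hochberg adjusted p under 0.1 and more than 1.5-fold on the scale of log2(normalized count + 1), from a limma model of all 24 hearts. By this rule 7.03% of all genes were called, 3.78% higher (916 genes) and 3.26% lower (789 genes) after TAC. For 289 of the higher and 364 of the lower DEGs, the 6 TAC hearts did not overlap the 6 Sham hearts. Over all genes, TAC hearts lay wholly above Sham hearts for 2.46% and wholly below for 2.79%. The median change was 2.11-fold among higher and 2.03-fold among lower DEGs, and more than 4-fold for 111 and 85 genes. In set 1, 98.7% of higher and 99.0% of lower DEGs had the same sign. In set 2 it was 100% of both, a description only, since these hearts chose the DEGs. Without TAC heart 5 the count was 1267 DEGs, without TAC heart 2 it was 1956, without Sham heart 1 it was 1916, and without all 3 it was 1631, a setting chosen after seeing the data.

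Hypertrophy genes rose. Of 14 listed members, 11 were called higher (78.6%, against 3.78% of all genes) and none lower, with a median log2 fold change of 1.55. *Myh7*, the slow myosin heavy chain (chr14:55208141-55232083, GRCm39), ranged from 64520 to 230381 normalized counts in TAC hearts (median 150464), against 5496 to 27068 in Sham hearts (median 7544). The groups did not overlap, with Sham heart 1 the highest and TAC heart 2 the lowest of its own group (log2 fold change 4.02, standard error [SE] 0.47, adjusted p = 3.69e-06). Skeletal α-actin, *Acta1* (chr8:124618508-124621490), was at 99200 to 216284 (median 143363) after TAC and 6983 to 46992 (median 12802) after Sham, again without overlap (log2 fold change 3.13, SE 0.44, adjusted p = 2.77e-05). Sham hearts 1 and 5 held 46992 and 43339 counts of it, and the other 4 Sham hearts at most 13720. The atrial natriuretic peptide gene *Nppa* was at 20162 to 135801 after TAC and 1431 to 18415 after Sham (log2 fold change 3.74, SE 0.50). Its relative *Nppb*, the marker used in heart failure clinics, was at 12681 to 30758 after TAC and 1910 to 9636 after Sham (log2 fold change 2.34, SE 0.32).

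Other genes of this list act at the sarcomere and the intercalated disc. The titin-binding repressor *Ankrd1* was at 90962 to 208065 in TAC hearts and 26933 to 62867 in Sham hearts, without overlap (log2 fold change 2.03, SE 0.24, adjusted p = 3.69e-06). *Xirp2*, an actin-binding protein of the intercalated disc, rose by 2.02 on the log2 scale, and *Rcan1*, an inhibitor and target of calcineurin, by 1.78. *Xirp1*, *Fhl1*, *Enah* and *Ankrd23* were also called, *Xirp1* not without TAC heart 1 or 2. The members that missed the rule were *Csrp3* (0.46, adjusted p = 0.0131, without overlap and under the fold limit), *Tnni1* (0.85, adjusted p = 0.422, with a mean of 8.46 counts after TAC and 3.99 after Sham) and *Myh7b* (−0.32, adjusted p = 0.285). The list's mean was higher in every TAC heart than in any Sham heart on the log2 scale, with TAC heart 5 the highest (2.04 above the Sham average) and Sham heart 1 the highest of its group (0.62). The list's median log2 difference was 1.75 in set 1 and 1.52 in set 2. *Gm13054* stood among the 10 highest genes too, but it lies antisense to *Nppa*, and since the counting is not stated to use strand its reads cannot be told apart from those of *Nppa*. It held 2481 and 1409 counts in TAC hearts 5 and 6 of set 1, against 40.5 to 158 in those of set 2.

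**Figure D1:**
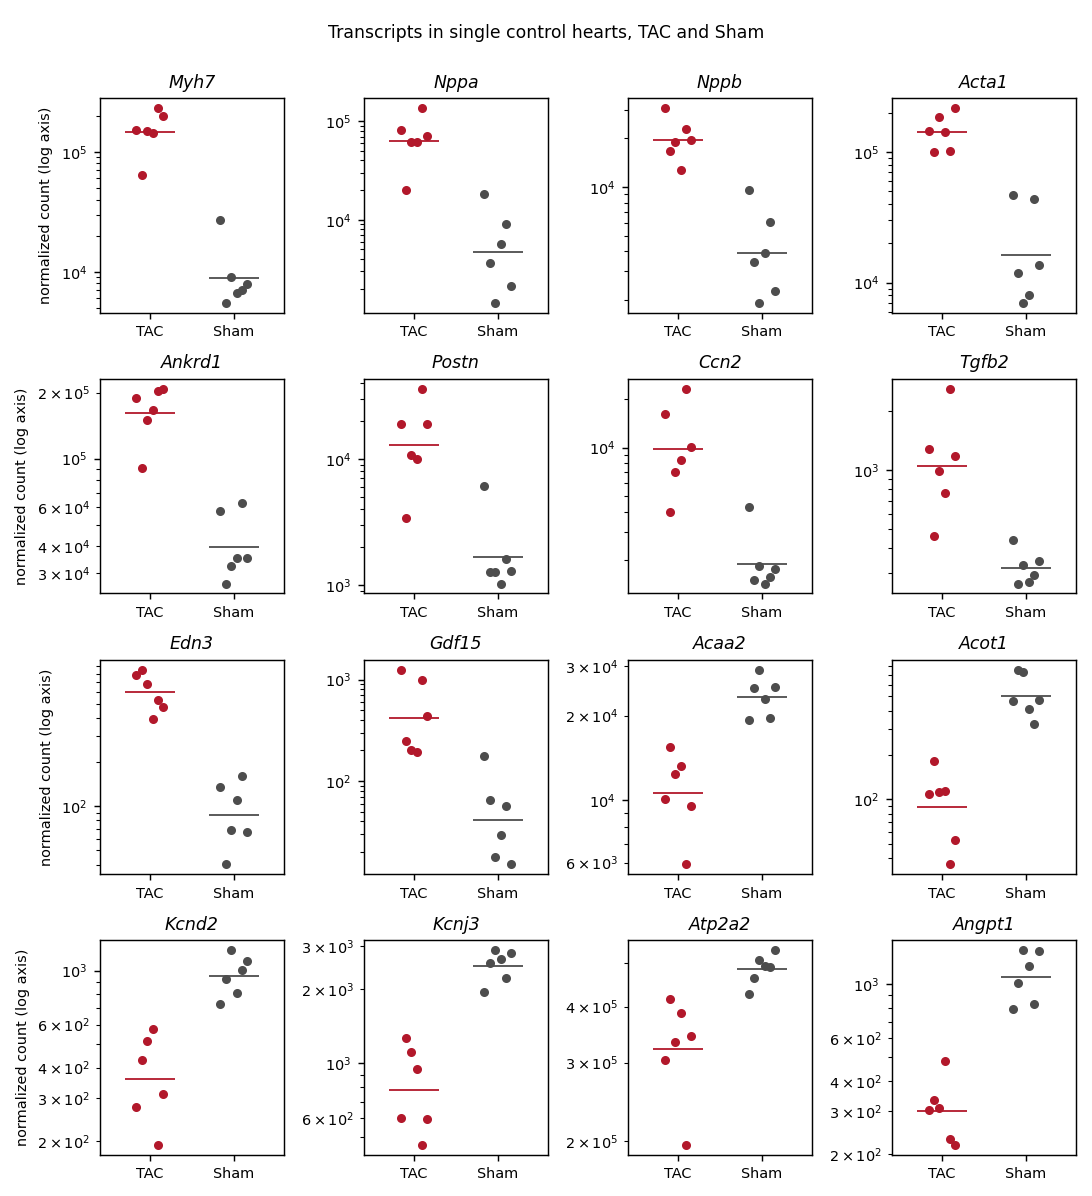
Normalized counts of 16 transcripts in each control heart on a log axis, TAC hearts (red, left) and Sham hearts (grey, right). Each point is a heart and each line the mean of the logs. *Myh7*, *Nppa*, *Nppb*, *Acta1*, *Ankrd1*, *Tgfb2*, *Edn3* and *Gdf15* show no overlap with TAC hearts on top, *Postn* and *Ccn2* overlap through Sham heart 1, and the last 6 panels show TAC hearts below Sham hearts.

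The promoters of *Acta1* and *Myh7* are shown because they were the ones, of the 6 of the 10 highest genes with a RefSeq window, that held a searched motif. The motifs were the M-CAT element CATTCC (bound by TEAD factors), the CArG box (serum response factor), the MEF2 box and the ERR element TCAAGGTCA (estrogen-related receptors), on both strands. Windows ran from 250 bases before to 50 bases after the start site, 1 window per gene, and the 250 bases before the start are printed on the coding strand of GRCm38.p6, with motif matches in capitals. In *Acta1* (chr8:123894776-123895025, minus strand) the CArG box begins at position −73 from the start and the M-CAT element at −46. In *Myh7* (chr14:54994627-54994876, minus strand) the M-CAT element lies on the other strand and begins at position −201.
Acta1: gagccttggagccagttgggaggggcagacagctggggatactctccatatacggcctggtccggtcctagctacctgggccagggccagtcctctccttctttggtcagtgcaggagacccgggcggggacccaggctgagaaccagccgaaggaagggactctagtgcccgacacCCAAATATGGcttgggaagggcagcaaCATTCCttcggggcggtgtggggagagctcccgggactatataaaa
Myh7: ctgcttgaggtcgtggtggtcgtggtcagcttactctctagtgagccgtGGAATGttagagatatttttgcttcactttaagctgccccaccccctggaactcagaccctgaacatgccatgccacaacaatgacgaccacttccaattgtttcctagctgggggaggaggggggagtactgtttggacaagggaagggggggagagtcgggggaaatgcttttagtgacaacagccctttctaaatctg
An M-CAT element was in 15.5% of 651 promoters of higher DEGs, 15.4% of 499 of lower DEGs and 12.7% of 14245 of all genes. The CArG box was in 1.69% of higher DEGs, 0.60% of lower DEGs and 1.37% of all promoters. The MEF2 box was in 2.00%, 3.21% and 2.11% of the same sets, and the ERR element in 0.61%, 0.20% and 0.26%. A match says only that the letters are present in the window.

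The balance of some paralog pairs differed between groups, for *Hk1* with *Hk2* and *Slc2a1* with *Slc2a4* although none of these genes was called. Scaled to exon length, *Myh7* made up 22.4% ± 10.5 (SD, n = 6) of *Myh7* and *Myh6* together in TAC hearts, against 1.23% ± 1.08 (SD, n = 6) in Sham hearts, and ranged from 7.59 to 38.8% after TAC and from 0.644 to 3.43% after Sham. The ratio differed by 4.68 on the log2 scale (exact permutation test, two-sided, p = 0.00216, adjusted over 6 ratios p = 0.00649), with 5.03 in set 1 and 4.50 in set 2. *Myh6* itself was at 362757 to 785000 after TAC and 760308 to 997770 after Sham (log2 fold change −0.65, SE 0.27, adjusted p = 0.133), not called, and it was called without TAC heart 2 (−0.75, adjusted p = 0.0705). *Acta1* made up 48.1% ± 7.70 of *Acta1* and *Actc1* in TAC hearts and 11.1% ± 7.70 in Sham hearts (log2 difference 3.17, exact permutation p = 0.00216). *Actc1* alone was at 210043 to 259064 after TAC and 231226 to 275576 after Sham, so that the groups overlapped. These pairs are near-identical paralogs, and reads could be split between them in a way that the counting decides. *Hk1*, the hexokinase form of the fetal heart, made up 43.8% ± 5.94 of *Hk1* and *Hk2* after TAC and 31.9% ± 3.35 after Sham (log2 difference 0.74, exact permutation p = 0.00433). *Slc2a1*, the insulin-independent glucose transporter, made up 9.38% ± 5.09 of *Slc2a1* and *Slc2a4* after TAC and 5.09% ± 0.572 after Sham (0.81, exact permutation p = 0.00866). Both shares overlapped. That of *Hk1* was 38% in TAC heart 2 and 38.25% in Sham heart 1. That of *Slc2a1* was 18.7% in TAC heart 5, 5.82% in the lowest TAC heart and 6.17% in Sham heart 1. Without TAC heart 5 the *Slc2a1* difference was 0.55. The ratios of *Cpt1a* to *Cpt1b* (−0.25, exact permutation p = 0.264) and *Col1a1* to *Col3a1* (0.22, exact permutation p = 0.0931) were not past the threshold. *Cpt1b*, the muscle form, was at only 134 ± 40.2 counts after TAC and 139 ± 24.5 after Sham (SD, n = 6 each), low for this tissue, and why was not tested.

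**Figure D2:**
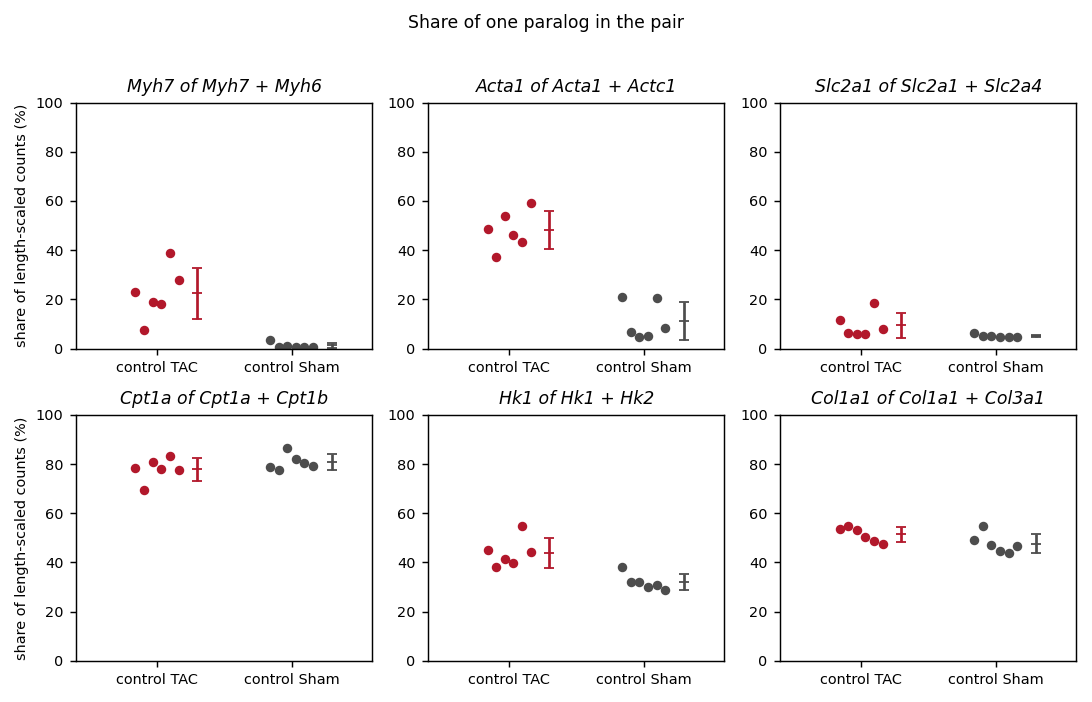
Share of 1 paralog in its pair by length-scaled normalized count (%), in each TAC heart (red) and Sham heart (grey), with the mean and SD beside the points (n = 6 each). All 6 TAC hearts lie above all Sham hearts for *Myh7* and *Acta1*. TAC heart 5 is the highest for *Myh7*, *Slc2a1* and *Hk1*.

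Of 16 adult sarcomere genes 1 was called higher (6.25%, against 3.78% of all genes) and 2 lower (12.5%, against 3.26%), with a median log2 fold change of 0.03. *Des*, the intermediate filament desmin, rose (81339 to 135917 counts after TAC, 50857 to 66441 after Sham, log2 fold change 0.82, adjusted p = 0.00102), without overlap. Cardiac troponin I, *Tnni3*, fell (40139 to 76770 after TAC, 80229 to 115784 after Sham, −0.78, adjusted p = 0.00772), also without overlap. The titin cap *Tcap* fell by 0.72 (adjusted p = 0.0667), a call lost without TAC heart 5 (adjusted p = 0.168) and without any of 6 other hearts.

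Of 15 calcium handling genes 2 were called lower (13.3%, against 3.26% of all genes) and none higher, with a median of −0.32. Without TAC heart 5 none was called. The sarcoplasmic reticulum calcium pump *Atp2a2* was at 196279 to 416948 counts after TAC and 425937 to 534646 after Sham, without overlap, and TAC heart 5 was the lowest (log2 fold change −0.59, SE 0.21, adjusted p = 0.0712). It was close to both limits and was not called without any of 7 hearts, TAC heart 5 among them (−0.45, adjusted p = 0.172). The calcium-binding protein *Hrc* fell by 0.74 (adjusted p = 0.00695), and without TAC heart 5 by 0.56, under the fold limit. Phospholamban, *Pln*, which restrains the pump, was at 82470 to 129221 after TAC and 145047 to 176154 after Sham. It did not overlap and stayed under the fold limit (−0.56, adjusted p = 0.0118), which it passed without any of 4 hearts, while the release channel *Ryr2* had −0.36 (adjusted p = 0.142).

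Of 17 potassium channel genes 8 were called lower (47.1%, against 3.26% of all genes) and none higher, with a median of −0.50, −0.91 in set 1 and −0.55 in set 2. *Kcnj3* (chr2:55325982-55488157), a subunit of the acetylcholine-gated channel, was at 466 to 1272 counts after TAC and 1957 to 2888 after Sham, without overlap (log2 fold change −1.68, SE 0.20, adjusted p = 5.54e-06). *Kcnd2*, a pore subunit of the transient outward current, was at 192 to 574 after TAC and 730 to 1213 after Sham (−1.40, SE 0.25, adjusted p = 0.000346), and its partner *Kcnip2* at 1903 to 3890 after TAC and 4361 to 7148 after Sham (−0.87, SE 0.15). Neither overlapped. *Kcnv2*, a silent modifier subunit, had the largest fall of the list (−2.22, SE 0.43), with 12.4 counts in TAC heart 5, 98.6 to 230 in the other TAC hearts and 390 to 518 in Sham hearts. Inward rectifiers *Kcnj2* (−0.89) and *Kcnj5* and the rapid repolarising channel *Kcnh2* (−0.81) and *Kcnd3* (−0.69) were called lower as well. All 8 were without overlap, as were 364 of the 789 lower DEGs over all genes. Without TAC heart 5 the list still had 8 members called lower. Without Sham heart 1, Sham heart 2 or TAC heart 6, 1 member was called higher. Among sodium, pacemaker and T-type channels and connexins, 1 of 12 was higher (8.33%, against 3.78% of all genes) and 4 lower (33.3%, against 3.26%). The pacemaker channel *Hcn4* fell by 1.16, with *Scn4a*, *Cacna1g* and *Cacna1h* also lower. *Cacna1g* was lost without TAC heart 6, Sham heart 3 or Sham heart 6.

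**Figure D3:**
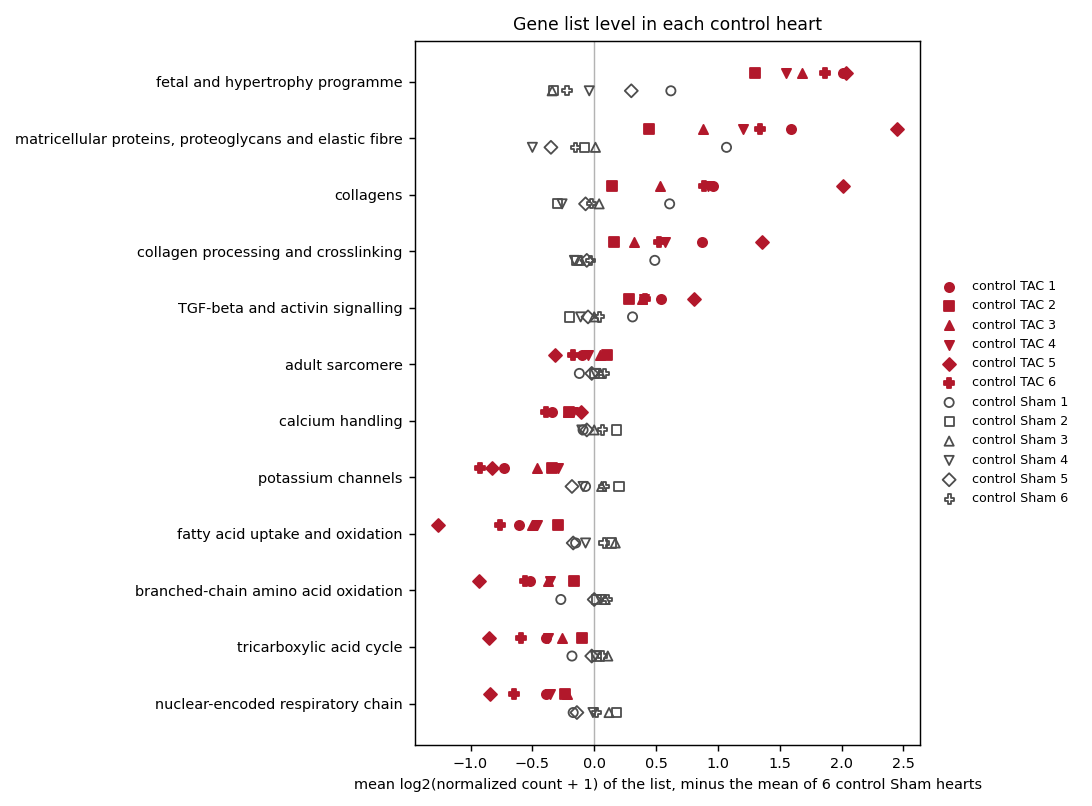
Mean log2(normalized count + 1) of each gene list in each control heart, minus the mean of the 6 Sham hearts. Filled red symbols are TAC hearts and open grey symbols Sham hearts, with 1 symbol per replicate number. TAC heart 5 lies farthest from the Sham hearts in every list shown but the calcium and potassium channel ones, TAC heart 2 is nearest to the Sham hearts in the matrix lists, and Sham heart 1 reaches into the TAC range there.

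Fatty acid genes fell. Of 33 members 19 were called lower (57.6%, against 3.26% of all genes) and none higher. For 19 of the 33 the TAC hearts lay wholly below the Sham hearts, as they did for 2.79% of all genes. The median log2 fold change was −0.61. *Acaa2* (chr18:74912268-74939279), the last thiolase step of β-oxidation, was at 5915 to 15424 counts after TAC (median 11286) and 19345 to 29182 after Sham (median 24045), without overlap (−1.13, SE 0.16, adjusted p = 3.67e-05). *Ech1*, an enoyl-CoA isomerase of the same pathway, was at 7647 to 20977 after TAC and 22538 to 35445 after Sham (−1.02, SE 0.18), and *Hadh*, a short-chain dehydrogenase, at 5626 to 13595 after TAC and 14621 to 19176 after Sham (−0.84, SE 0.14). *Acot1*, a cytosolic acyl-CoA thioesterase, was at 36.3 to 183 after TAC and 323 to 760 after Sham, again without overlap (−2.49, SE 0.27, adjusted p = 2.89e-06). The uncoupling protein *Ucp3* (−1.23, adjusted p = 0.0192) overlapped, with TAC heart 4 at 1319 and Sham heart 5 at 1040. Among uptake genes the transporter *Slc27a1* fell by 1.00, and the fatty acid translocase *Cd36* had −0.24 (adjusted p = 0.329), the binding protein *Fabp3* −0.12 (adjusted p = 0.739) and lipoprotein lipase, *Lpl*, −0.34 (adjusted p = 0.19).

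TAC heart 5 was the lowest for this list. This heart's list mean stood at −1.26 from the Sham average on the log2 scale, and those of the other TAC hearts at −0.76 to −0.29. Without it 8 members were called, without TAC heart 2 22 were, and without Sham heart 1 20 were. The median was −0.90 in set 1 (22 called lower) and −0.44 in set 2 (6 called lower). Cardiomyocyte markers moved with this list and with the other metabolic lists, and their part in these results was not tested. Of 10 such markers 1 had a positive log2 fold change, and the median was −0.39. Their mean stood at −0.77 from the Sham average in TAC heart 5 and −0.09 in TAC heart 2, against −0.14 to 0.07 in Sham hearts.

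For the nuclear-encoded respiratory chain all 70 members measured had a negative log2 fold change, from −0.84 to −0.23 with a median of −0.45. Of these 5 were called lower (7.14%, against 3.26% of all genes): *Cox7a1*, *Cox7c*, *Sdha*, *Cox6c* and *Atp5e*. *Cox7a1*, a heart-type subunit of cytochrome oxidase, was at 3023 to 6776 counts after TAC and 7638 to 10546 after Sham, without overlap (−0.84, SE 0.20, adjusted p = 0.00479). In set 1 alone 60 of the 70 were called lower (median −0.77) and in set 2 alone none was (median −0.28), and the count was 2 without TAC heart 5, TAC heart 6 or Sham heart 3, 3 without Sham heart 2, 8 without Sham heart 1 and 12 without TAC heart 3. All 13 tricarboxylic acid cycle genes were negative (median −0.47) with *Suclg1* called (7.69%, against 3.26% of all genes). *Suclg1* had −0.60 and was under the fold limit without any of 4 hearts, TAC heart 5 among them. With edgeR and DESeq2 0 of the 13 were called, 12 had an unadjusted p under 0.05 with limma, and without TAC heart 2 2 were called. All 23 branched-chain amino acid genes were negative (median −0.50) with 6 called lower (26.1%, against 3.26% of all genes). *Ppm1k*, the phosphatase that activates branched-chain ketoacid dehydrogenase, led these (1089 to 1985 counts after TAC, 2201 to 3848 after Sham, −1.02, SE 0.17, adjusted p = 0.000151), and *Bckdhb* and *Mccc2* followed, all 3 without overlap. Branched-chain genes numbered 3 called without TAC heart 5, 11 without TAC heart 2 and 9 without Sham heart 1. The 15 mitochondrially encoded genes with a mean of at least 100 counts were all negative too (median −0.52). Of the 15, 1 was past the rule, against 3.26% of all genes, the transfer RNA gene *mt-Tw* (−0.70, adjusted p = 0.00345). *mt-Co2* and *mt-Co3* averaged only 155 and 105 counts after TAC, against 1759048 for *mt-Co1*, and why was not tested.

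The regulators of these genes were not called. With limma 0 of 15 passed, as with edgeR and DESeq2, and 6 had an unadjusted p under 0.05. All 15 had a negative log2 fold change (−0.56 to −0.01), and 2 were called lower without TAC heart 2 and 1 without TAC heart 3. The coactivator *Ppargc1a* was at 1480 to 3136 after TAC and 2722 to 3389 after Sham (−0.55, SE 0.14, adjusted p = 0.00872), under the fold limit, and was called without TAC heart 2 (−0.67). Its receptor partner *Ppara* had −0.17 (adjusted p = 0.716).

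Of 29 glucose genes, 2 rose (6.90%, against 3.78% of all genes) and 2 fell (6.90%, against 3.26%). Without TAC heart 2, 2 were higher and 6 lower, without TAC heart 5 1 was higher and 1 lower, and in set 1 alone 1 was higher and 6 lower. Without TAC heart 1 or Sham heart 3, 4 or 6, 1 was higher. The platelet-type phosphofructokinase *Pfkp* was at 3013 to 5409 counts after TAC and 1511 to 2831 after Sham, without overlap (log2 fold change 1.11, SE 0.17, adjusted p = 5.23e-05), and *Pgam1*, a glycolytic mutase, rose by 0.63, a call lost without any of 5 hearts. The muscle enolase *Eno3* fell by 0.67 and, without TAC heart 5, by 0.56, under the fold limit. The bifunctional regulator *Pfkfb1* was at 19.0 to 132 after TAC and 280 to 694 after Sham (−2.46, SE 0.35). The insulin-sensitive transporter *Slc2a4* lay wholly lower after TAC (5119 to 9538, against 9606 to 12561 after Sham) at −0.53 (adjusted p = 0.00623), within 1.5-fold, and was called without TAC heart 2 (−0.60). *Pdk4*, a brake on pyruvate dehydrogenase, ranged from 4065 to 20355 after TAC and from 6394 to 19160 after Sham. Among 5 ketone and monocarboxylate genes, *Bdh1*, which oxidises β-hydroxybutyrate, rose (4989 to 8740 after TAC, 1848 to 5711 after Sham, 1.00, adjusted p = 0.00133), with overlap, by 1.37 in set 2 and 0.26 in set 1. *Slc16a3* was called higher too (1.02), a call lost without TAC heart 5 (0.74, adjusted p = 0.188) or any of 5 other hearts.

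Of 30 purine genes, 2 were called higher (6.67%) and 1 lower (3.33%), near the 3.78% and 3.26% of all genes, with a median of 0.05. *Entpd1*, which splits extracellular ATP, rose by 0.60 (644 to 1067 counts after TAC, 393.6 to 716 after Sham), just past the fold limit, and it was not called without any of 5 hearts. Adenosine deaminase, *Ada*, was called at a low level (30.1 ± 10.4 counts after TAC, 15.6 ± 6.60 after Sham, SD, n = 6 each, 0.92), a call lost without TAC heart 5 (0.81, adjusted p = 0.188) or any of 7 other hearts. Without TAC heart 1 or 4, or Sham heart 3, 4 or 6, no purine gene was called higher. The adenosine receptor *Adora1* fell by 0.61 (adjusted p = 0.0493), a call lost without TAC heart 6 (adjusted p = 0.148) or Sham heart 2 (0.128). *Nt5e*, the 5′ nucleotidase, was at 426 to 778 after TAC and 378 to 515 after Sham (0.51, adjusted p = 0.029), under the fold limit, and was called without TAC heart 3 (0.60). Adenosine kinase, *Adk*, had −0.26 (adjusted p = 0.0614), and *Pnp*, purine-nucleoside phosphorylase, 0.21 (adjusted p = 0.586). Outside this list, the pyrimidine enzymes *Upp1* (0.94, adjusted p = 0.00711) and *Dpyd* (−0.95, adjusted p = 0.00359) changed in opposite directions.

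Matrix genes rose broadly and unevenly between hearts. Of 28 matricellular, proteoglycan and elastic fibre genes 21 were higher (75%, against 3.78% of all genes) and 1 lower (3.57%, against 3.26%). The median was 1.27, and 17 were higher without TAC heart 5. *Postn* (chr3:54268530-54298458), periostin, a marker of activated fibroblasts, was at 3381 to 35888 counts after TAC (median 14791) and 1021 to 6043 after Sham (median 1274). Sham heart 1 held the 6043, and the other 5 Sham hearts stayed at or below 1598, under every TAC heart (log2 fold change 2.97, SE 0.48, adjusted p = 0.000118). *Cilp*, a cartilage matrix protein made by heart fibroblasts, was at 1695 to 13104 after TAC and 329 to 3830 after Sham (2.77, SE 0.51), and *Ccn2*, connective tissue growth factor, at 3954 to 23216 after TAC and 1421 to 4240 after Sham (2.38, SE 0.35). Both overlapped through Sham heart 1 and TAC heart 2. Thrombospondins split, with *Thbs4* (2.73, SE 0.58) and *Thbs1* (1.52) higher and *Thbs2* lower (−0.64, adjusted p = 0.00587, and −0.56, under the fold limit, without TAC heart 1).

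Of 25 collagens, 15 were higher (60.0%, against 3.78% of all genes) and none lower, with a median of 0.77. TAC hearts lay wholly above Sham hearts for 1 of the 25, as they did for 2.46% of all genes. That gene was *Col8a1*, a short-chain collagen (2143 to 9745 counts after TAC, 617 to 2049 after Sham, log2 fold change 2.36, SE 0.32, adjusted p = 1.76e-05). Fibrillar *Col1a1* was at 4706 to 23353 after TAC and 3630 to 8359 after Sham (0.99, SE 0.29, adjusted p = 0.0272), and *Col3a1* at 6045 to 38601 after TAC and 4912 to 13643 after Sham (0.77, SE 0.32, adjusted p = 0.141), not called with all hearts and called without Sham heart 1 (0.94, adjusted p = 0.062) or TAC heart 2 (0.99, adjusted p = 0.0377). Without TAC heart 5 there were 10 collagens called, and *Col8a2* was among those lost (1.86, adjusted p = 0.108, against 2.24, adjusted p = 0.0323). The median was 1.38 in set 1 and 0.46 in set 2. Enzymes that modify collagen rose too (11 of 24, 45.8%, against 3.78% of all genes, and none lower). They were led by the crosslinking oxidase *Lox* (300 to 2422 counts after TAC, 111 to 498 after Sham, 1.85, SE 0.43) and *Loxl3* (1.66). *Loxl3* overlaps *Htra2* on the other strand.

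Among proteases and their inhibitors 4 of 17 were higher (23.5%, against 3.78% of all genes) and 1 lower (5.88%, against 3.26%). *Timp1*, an inhibitor of metalloproteinases, was at 82.1 to 680 after TAC and 21.6 to 121 after Sham (2.39, SE 0.47), and *Adamts8* at 79.8 to 424 after TAC and 24.7 to 55.5 after Sham, without overlap (2.41, SE 0.40). The membrane protease *Mmp15* fell by 0.71 with no overlap (1914 to 2531 after TAC, 2870 to 4090 after Sham).

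Of 29 TGF-β and activin pathway genes, 10 were higher (34.5%, against 3.78% of all genes) and 1 lower (3.45%, against 3.26%). The ligand *Tgfb2* was at 462 to 2587 counts after TAC and 265 to 440 after Sham, without overlap (1.72, SE 0.25, adjusted p = 3.67e-05), *Tgfb3* rose by 0.80, and *Tgfb1* had 0.28 (adjusted p = 0.234). *Ltbp2*, a matrix protein related to the latent TGF-β binding proteins, was at 782 to 7859 after TAC and 111 to 1664 after Sham (3.13, SE 0.58), and *Fstl3*, an activin antagonist, rose by 1.73. *Ltbp1* fell by 0.60, a call lost without any of 5 hearts. Receptors and SMADs were not called.

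**Figure D4:**
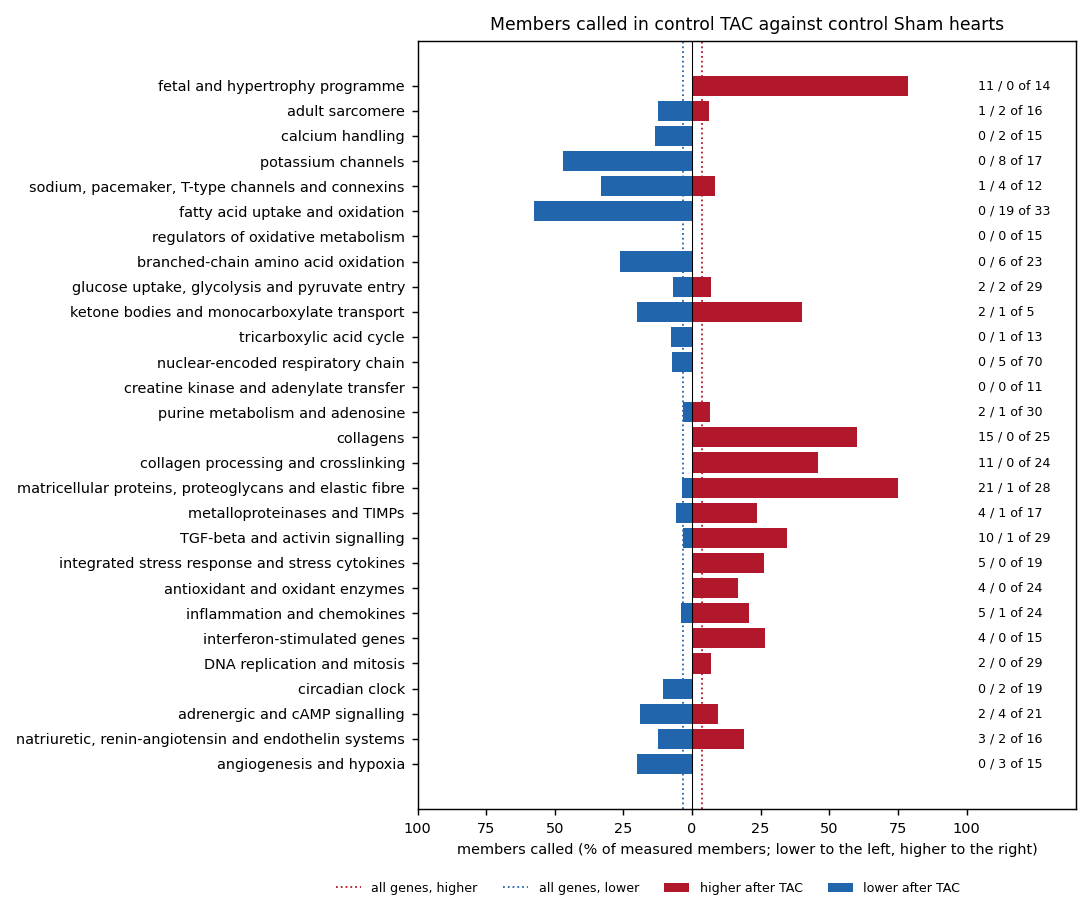
Share of measured members of 28 gene lists called higher (red, right) or lower (blue, left) in control TAC against control Sham hearts, with the counts (higher / lower of measured) at the right. Dotted lines mark the shares of all genes, 3.78% higher and 3.26% lower. The hypertrophy and matrix lists reach farthest to the right and the fatty acid and potassium channel lists farthest to the left.

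In the integrated stress response 5 of 19 rose (26.3%, against 3.78% of all genes), and 3 did without TAC heart 5. The cytokine *Gdf15* led these (192 to 1254 counts after TAC, 15.1 to 176 after Sham, no overlap, log2 fold change 3.28, SE 0.55, adjusted p = 0.000176). The transcription factors of this response, *Atf4* (0.28, adjusted p = 0.221), *Ddit3* (0.04, adjusted p = 0.947) and their regulator *Trib3* (0.25, adjusted p = 0.667) were not called. *Mthfd2*, a mitochondrial folate enzyme, was called at 0.78 (adjusted p = 0.0641) and lost without TAC heart 5 (0.53, adjusted p = 0.217) or any of 6 other hearts. Of 24 antioxidant and oxidant enzymes 4 were higher (16.7%, against 3.78% of all genes) and none lower. Among the higher were the NADPH oxidase *Nox4* (90.0 to 440 after TAC, 27.6 to 221 after Sham, 1.85, SE 0.44) and the extracellular *Gpx3* (0.90) and *Sod3* (0.71). The fourth, *Gpx1* (0.60), was under the fold limit without any of 6 hearts. Mitochondrial *Sod2* lay wholly lower after TAC (8020 to 13674, against 15216 to 16773 after Sham), at −0.52 within 1.5-fold.

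Of 24 inflammation genes, 5 were higher (20.8%, against 3.78% of all genes) and 1 lower (4.17%, against 3.26%). Without TAC heart 5 1 was higher, without TAC heart 1, TAC heart 6 or Sham heart 6 2 were, and without Sham heart 3, 4 or 5 3 were. *Serpina3n*, an acute-phase protease inhibitor, had 1.77 (adjusted p = 0.0471), a call lost without TAC heart 5 (adjusted p = 0.157) or any of 6 others. The eosinophil chemokine *Ccl11*, under the naming level and chosen after its values were seen, fell to 10.2 ± 6.83 counts in TAC hearts, against 101 ± 50.5 in Sham hearts (SD, n = 6 each, −3.38, adjusted p = 3.16e-05). Interferon-induced *Ifit1*, *Ifit2* and *Ifit3* rose by 0.88, 0.77 and 0.74 among 4 of 15 called higher (26.7%, against 3.78% of all genes). None of the 15 was called in set 2 alone, and *Ifit3* was lost without TAC heart 1 (0.61, adjusted p = 0.104) or Sham heart 6, when 2 members were called. The listed cell division genes gave 2 of 29 higher (6.90%, against 3.78% of all genes) and none lower. None was called without TAC heart 5 or TAC heart 1, 1 without TAC heart 6 or Sham heart 2, 4 or 6, and 4 without TAC heart 3 or TAC heart 4. The kinetochore gene *Cenpf*, which this list does not hold, was called lower (−2.56).

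In the natriuretic, renin-angiotensin and endothelin list 3 of 16 rose (18.8%, against 3.78% of all genes) and 2 fell (12.5%, against 3.26%). In the adrenergic list 2 of 21 rose (9.52%, and 1 without TAC heart 5 or Sham heart 1) and 4 fell (19%). *Edn3*, a ligand of the endothelin B receptor, was at 391 to 854 counts after TAC and 40.2 to 160 after Sham, without overlap (2.76, SE 0.30, adjusted p = 2.89e-06), with the same 2.76 in each library set, whereas *Edn1* had −0.08 (adjusted p = 0.904). *Ace*, angiotensin-converting enzyme, rose by 1.28 (3333 to 8602 after TAC, 1553 to 2786 after Sham) and *Npr3*, the natriuretic peptide clearance receptor, by 0.88, neither with overlap. The mineralocorticoid receptor *Nr3c2* fell by 0.94 and neprilysin, *Mme*, by 1.10. The α1-adrenergic receptor *Adra1b* was at 235 to 472 after TAC and 687 to 1498 after Sham (−1.54, SE 0.22, adjusted p = 2.82e-05), and *Adra1a* fell by 0.80. *Rgs2*, which limits Gq signals from such receptors, was at 291 to 481 after TAC and 567 to 1513 after Sham (−1.41, SE 0.22). *Grk5*, a receptor kinase, rose by 0.62, and by 0.51 without TAC heart 5, under the fold limit. The β1 receptor *Adrb1* had −0.58 (adjusted p = 0.00296), within 1.5-fold, and was called without any of 5 hearts.

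Of 15 vessel and hypoxia genes none rose and 3 fell (20%, against 3.26% of all genes). *Angpt1*, a ligand that steadies vessels, was at 218 to 482 counts after TAC and 790 to 1377 after Sham (−1.82, SE 0.26, adjusted p = 3.16e-05), and apelin, *Apln*, at 174 to 259 after TAC and 376 to 706 after Sham (−1.35, SE 0.27). Neither overlapped. *Pgf*, the third, was lost without any of 5 hearts, and *Vegfa* had 0.03 (adjusted p = 0.938). In the clock list *Hlf* (−0.83) and *Nr1d2* (−0.69) fell out of 19 (10.5%, against 3.26% of all genes), with 4 called without TAC heart 3 or TAC heart 4. *Nr1d2* was lost without TAC heart 1 (−0.48, adjusted p = 0.15) or TAC heart 2 (−0.55, adjusted p = 0.114), which held its lowest counts.

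The lowest DEGs with a mean of at least 100 counts also held genes outside these lists. *Penk*, proenkephalin, was at 7.93 to 95.6 after TAC and 98.3 to 289 after Sham (log2 fold change −2.81 on the log2(count + 1) scale, SE 0.42). *Sbk2* and *Sbk3*, kinases of the SH3-binding domain family, fell by 2.80 and 2.60, *Cenpf*, a kinetochore protein, by 2.56, *Ubxn10* by 2.36 and *Phkg1*, a catalytic subunit of phosphorylase kinase, by 2.30. *Clcn1*, a muscle chloride channel, fell by 2.75. None of these overlapped between groups. *Sbk2* overlaps *Ssc5d*, *Phkg1* overlaps *Sumf2*, *Pfkfb1* overlaps *Apex2* and *Clcn1* overlaps *Fam131b* on the other strand, as *Pfkp* does *Pitrm1* and *Grk5* does *Zfp950*, and reads of these pairs may not be told apart. Among the 10 highest were also *Star*, a cholesterol carrier of steroid synthesis (136 to 853 after TAC, 23.7 to 85.4 after Sham, 3.14, SE 0.39), and the transcription factor *Tbx15* (130 to 301 after TAC, 13.3 to 68.5 after Sham, 2.98, SE 0.35).

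Markers of cell types moved with the matrix and metabolic lists, and their part in those results was not tested. Of 10 myofibroblast markers 7 were called higher (70%, against 3.78% of all genes) and none lower. Their summed level was 10995 to 75200 normalized counts in TAC hearts and 5113 to 21330 in Sham hearts. *Acta2* (−0.56, adjusted p = 0.197), the defining contractile gene of this cell, was not among those called. Of 10 fibroblast markers 5 were higher (50%), with sums of 60434 to 123921 after TAC and 54243 to 72447 after Sham. Of 10 cardiomyocyte markers 1 was lower (10%, against 3.26% of all genes), with sums of 1145335 to 1912645 after TAC and 1873726 to 2256622 after Sham. With limma 0 of 10 endothelial markers were called (1 at an unadjusted p under 0.05, and 0 with edgeR and DESeq2). The same count was 0 of 10 for macrophage markers, where 8 had an unadjusted p under 0.05, 2 were called with edgeR and 2 with DESeq2, and all 10 were positive (median 0.50). Several myofibroblast and fibroblast markers, *Postn*, *Cilp*, *Thbs4*, *Comp* and *Col1a1* among them, also belong to the matrix lists. Of 8 atrial markers *Nppa* was called higher and the transcription factor *Tbx5* lower (420 ± 103.3 counts after TAC, 682 ± 106 after Sham, SD, n = 6 each, −0.73, adjusted p = 0.00575). The atrial myosin light chain *Myl7*, which was not called (−1.88, adjusted p = 0.651), averaged 21.9 ± 47.3 counts after TAC and 130 ± 247 after Sham (SD, n = 6 each), high in TAC heart 5 and Sham heart 2. Adipocyte markers, summed, reached 199.6 counts in TAC heart 5 and were 0 in another TAC heart, against 6.31 to 47.3 in Sham hearts. The noradrenaline enzyme *Dbh*, from the Schwann cell and neuron list of which 3 of 8 were lower and 1 higher, fell to 15.6 ± 8.78 counts after TAC, against 83.1 ± 22.4 after Sham (−2.81, adjusted p = 0.000505). The lung marker *Sftpa1* and the thymus marker *Dntt* were at 0 in all 12 hearts.

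The response to TAC was compared between control and cSirt5-/- hearts by the limma interaction term. Number series and library set were not balanced over the groups of genotype and surgery, so they are mixed with this difference. Of 128 named genes 1 passed at an adjusted p under 0.1 (*Acot1*, 1.78 less negative on the log2 scale in cSirt5-/- hearts, adjusted p = 0.0868), out of 23 of all genes. A gene that did not pass is not shown to respond alike. *Myh7* differed by −2.35 (cSirt5-/- minus control, SE 0.67, adjusted p = 0.196). For 101 of the 102 named genes called in control hearts the log2 fold change was farther from 0 in control than in cSirt5-/- hearts, a comparison for which the genes were chosen on the control response. The hypertrophy list had a median of 1.55 in control and 0.64 in cSirt5-/- hearts, and the fatty acid list −0.61 in control and −0.15 in cSirt5-/- hearts. These differences between list medians were not tested.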

How the data were processed

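Whole-heart RNA of 24 mice was sequenced as paired-end reads from directional libraries. The authors trimmed reads with Trim Galore, aligned them to GRCm39 with STAR, dropped genes under 10 reads summed over libraries, and divided counts by 1 DESeq2 size factor per library. The counting program and annotation release are not given in the sources used here. The deposited signal values, normalized counts of 24239 genes, were whole multiples of 1 step per library (100% within 0.01 of a whole read), which gave the depth of each library. Deposited columns with fold changes and p-values were not used. Animals were separate for each library, taken from their labels.

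Values were tested as log2(normalized count + 1) with limma 3.58.1 (empirical Bayes with a mean trend, R 4.3.3) over 24 libraries with 1 term per genotype and surgery, adjusted over all genes by Benjamini–Hochberg. No filter on low values was used. DEGs had an adjusted p under 0.1 and more than 1.5-fold. Ratios and library shares were tested by exact permutation (SciPy 1.17.1), two-sided. The fit was tested on simulated data. The alternatives were DESeq2 1.42.0 and edgeR 4.0.16 on recovered reads, the 12 control libraries alone, a pseudocount of 5, a mean minimum of 10, TMM scaling without mitochondrial genes and ribosomal RNA, library sets, animal-number series, a replicate block and each control heart left out.

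Named were the 10 highest and 10 lowest DEGs with a mean of at least 100 counts, up to 3 in each direction per list, and genes the study names. A few that met this rule are not reported here. Members and lists (28 pathway lists with 608 of 612 entries measured, and 23 marker lists) were chosen with earlier results of these data known. Promoters are RefSeq windows of GRCm38.p6.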

Additional observations from a re-analysis of the deposited data

Results flagged for a closer look

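Among 62 of the named genes with 2 groups of 6 hearts each, plus the library shares, 25 of 128 groups tested held a heart whose gap to its nearest neighbour exceeded Dixon's 95% limit for 6 values as a share of the group's range. The limit's rate of 1 in 20 holds for independent, normally distributed values. Gene values here were unlogged counts, and many flagged genes were high in the same heart. The 25 are therefore a description and cannot be set against that rate.

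Sham heart 1 was far above the other Sham hearts for *Myh7* (27068 normalized counts), *Gm13054* (202.9), *Gdf15* (176.2), *Star* (85.44), *Ltbp2* (1664), *Postn* (6043), *Col8a2* (246.7), *Cilp* (3830), *Col1a1* (8359), *Col3a1* (13643), *Ccn2* (4240) and *Col14a1* (897.1). TAC heart 5 was far above the other TAC hearts for *Col8a2* (607), *Col1a1* (23353) and *Col3a1* (38601). TAC heart 2, with 23.43% of its reads in ribosomal RNA and 7SK, was far above the other TAC hearts for *Penk* (95.58) and *Ryr2* (50220) and below them for *Hprt* (1292).

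Sham heart 2 was the far highest Sham heart for *Kcnip2* (7148), *Slc2a4* (12561), *Gpx4* (8519) and *Rplp0* (9899), and Sham heart 3 for *Col22a1* (85.43). TAC heart 4 was the far highest TAC heart for *Rplp0* (7307).

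The response of *Acot1* to TAC differed between genotypes by 1.78 on the log2 scale (cSirt5-/- minus control, limma interaction term, adjusted p = 0.0868), with −0.71 in cSirt5-/- and −2.49 in control hearts. Number series and library set were not balanced over these groups.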

How the results depend on the processing

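Leaving out each control heart in turn gave 1267 DEGs (without TAC heart 5) to 1956 (without TAC heart 2), with 663 to 1072 higher and 604 to 884 lower. Over whole fits, DESeq2 gave 1790, edgeR 1730, animal-number series as a covariate 1295, set 1 alone 1229 (597 shared with the 1705) and set 2 alone 1334 (979 shared). In set 1 alone 452 DEGs were higher and 777 lower, against 916 and 789 over all hearts. With the replicate block there were 1693 DEGs. No label pairs the hearts by replicate number. Correlations of same-numbered hearts ran from −0.14 to 0.369. They cannot decide on pairing, since those of differently numbered hearts were not computed. Of 102 called named genes, 81 kept their call without any single heart.

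The ratio of *Cpt1a* to *Cpt1b* was 0.21 in set 1. The ratio of *Col1a1* to *Col3a1* was −0.22 in set 1. With the block it was 0.22 and past its threshold, which cannot be read as a result because no label pairs the hearts by replicate number. It was 0.17 to 0.30 with single hearts left out, and past its threshold without Sham heart 2 (0.30, exact permutation p = 0.013).

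Reversals touched only uncalled genes, and the cause was not tested. *Sirt5* was −0.02 with the series covariate, −0.18 in set 2 (the same 8 control hearts as animal series A), and −0.09 to 0.12 with single hearts left out. *Actc1* was 0.01 without 3 hearts and 0.06 in set 2. *Fgf21*, at 0 to 2.85 counts, was 0.12 in set 2, and −0.29 to 0.17 with single hearts left out. *Pdk4* was −0.93 in set 1 and −0.16 to 0.30 with single hearts left out. In set 1 *Pnp* was −0.21, *Gpx4* −0.23 and *Txn1* −0.18 (−0.01 to 0.09 with single hearts left out). *Aprt* was −0.06 with the series covariate. *Rplp0* was 0.16 in set 2, and −0.20 to 0.07 with single hearts left out.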
